A study of Homo sapiens with 6 samples.

Results

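The DUSP phosphatases of MAP kinases are 10 genes (DUSP1, DUSP2, DUSP4, DUSP5, DUSP6, DUSP7, DUSP8, DUSP9, DUSP10 and DUSP16), and their transcripts were followed here in the Jurkat line, which was established from a human acute lymphoblastic leukaemia of T cells. The genes were taken by symbol from the platform annotation and each of the 10, of 17687 genes named in all, had 1 probe set. RNA was measured on 6 Affymetrix arrays. The sample descriptions list 10% serum for all 6 samples, and all cells were kept without serum for 90 min. The untreated group (n = 3) then received nothing and the CXCL12 group (n = 3) received the chemokine at 100 ng/ml for 15 min. CXCL12 signals through the receptor CXCR4, and the comparison asks which transcripts differ after this stimulus. All arrays come from 1 cell line, and the titles speak of biological replicates without saying whether these were separate cultures, so p-values measure the spread between these samples only.

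These enzymes remove phosphate from both the threonine and the tyrosine that switch a MAP kinase on, and so end its signal. DUSP1, DUSP2, DUSP4 and DUSP5 reside in the nucleus and are known as genes that mitogens and stress induce. DUSP6, DUSP7 and DUSP9 are cytoplasmic and prefer ERK, while DUSP8, DUSP10 and DUSP16 prefer the stress kinases JNK and p38. Several of them are themselves transcribed in response to ERK activity, which makes a negative feedback loop. In T cells, ERK is activated downstream of the antigen receptor and of chemokine receptors such as CXCR4.

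DUSP6 had the largest difference among the 10 transcripts, 1.48 times the untreated signal, and DUSP5 followed the same arrays at 1.24 times. All 4 nuclear inducible genes had a positive change, against 1 of 3 in the cytoplasmic ERK class and 1 of 3 in the JNK/p38 class, and 50.7% of all probe sets tested were positive. Some signs turned with 1 array left out: DUSP1 was negative without untreated replicate 1 or CXCL12 replicate 3, and DUSP9 and DUSP16 were positive without CXCL12 replicate 1. The immediate early gene DUSP1 was nearly level, at 1.04 times. No member passed the test over all probe sets, so the values below are measurements with their intervals and not calls.

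The bases before the transcription start are shown for DUSP6, the member with the largest difference, for the 3 members whose windows held any of 5 motifs searched, and for EGR1, an immediate early gene of the ERK pathway that passed the test here. The windows are from RefSeq (GRCh38.p14), which had entries for 8 of the 10 members (10 windows) and none for DUSP4 and DUSP5. Each is 250 bases long and ends at the base before the start, written 5′ to 3′ on the strand of the gene. Capitals mark motif matches: the CRE octamer TGACGTCA that CREB binds, the E-box CACGTG, and in EGR1 the CArG boxes that SRF binds.
DUSP6, chr12:89352502-89352751, minus strand: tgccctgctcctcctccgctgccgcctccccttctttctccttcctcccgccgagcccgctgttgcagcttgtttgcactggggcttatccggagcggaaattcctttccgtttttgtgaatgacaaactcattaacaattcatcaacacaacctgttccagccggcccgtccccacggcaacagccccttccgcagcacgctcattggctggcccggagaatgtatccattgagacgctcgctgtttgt
DUSP1, chr5:172771196-172771445, minus strand: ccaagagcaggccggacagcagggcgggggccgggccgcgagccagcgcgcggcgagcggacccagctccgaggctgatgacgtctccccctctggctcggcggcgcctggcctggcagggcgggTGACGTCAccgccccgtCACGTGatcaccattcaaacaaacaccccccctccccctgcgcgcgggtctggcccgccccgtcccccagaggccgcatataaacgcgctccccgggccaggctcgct
DUSP2, chr2:96145441-96145690, minus strand: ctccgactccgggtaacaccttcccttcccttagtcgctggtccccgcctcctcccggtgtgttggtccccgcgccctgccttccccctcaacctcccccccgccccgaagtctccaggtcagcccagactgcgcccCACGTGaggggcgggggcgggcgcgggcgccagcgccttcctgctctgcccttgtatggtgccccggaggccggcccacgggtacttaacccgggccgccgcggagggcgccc
DUSP8, chr11:1572272-1572521, minus strand: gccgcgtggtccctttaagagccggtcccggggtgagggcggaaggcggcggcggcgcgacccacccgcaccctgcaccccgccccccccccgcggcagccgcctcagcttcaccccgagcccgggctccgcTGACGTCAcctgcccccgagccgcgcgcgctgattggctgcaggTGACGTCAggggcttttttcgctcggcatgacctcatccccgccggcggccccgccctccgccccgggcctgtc
EGR1, chr5:138465229-138465478, plus strand: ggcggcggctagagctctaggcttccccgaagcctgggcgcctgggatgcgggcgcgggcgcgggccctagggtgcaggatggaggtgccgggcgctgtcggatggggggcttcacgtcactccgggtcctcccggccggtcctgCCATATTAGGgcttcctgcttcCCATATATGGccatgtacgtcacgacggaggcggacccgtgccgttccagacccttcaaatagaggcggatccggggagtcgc

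Searched on both strands, the CRE octamer lay in the windows of DUSP1 (1 match, from 125 to 118 bases before the start) and DUSP8 (2 matches, 118 to 111 and 74 to 67 bases before it), and 1.65% of all 35116 windows held it. The E-box lay in those of DUSP1 (108 to 103 bases before the start) and DUSP2 (113 to 108), and in 6.34% of all windows. The AP-1 motif TGANTCA (6.57% of all windows), the ETS motif CCGGAAG (8.52%) and the CArG box (1.16%) were in none of the 10 windows of the members. EGR1 had 2 CArG boxes, 105 to 96 and 83 to 74 bases before its start. A match is a string of letters in a short window, and a window without one says only that these letters are not there. The windows of DUSP1, DUSP2 and DUSP8 held 74.4%, 74% and 76.8% G and C, against a median of 58% over all windows. The shares over all windows were not matched for this. The 2 members with a CRE octamer had log2 changes of 0.05 (DUSP1) and -0.11 (DUSP8).

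The values are log2 signals per probe set as the authors deposited them. The change is the CXCL12 mean minus the untreated mean, tested with limma over the 16086 probe sets whose mean lay above the lower 25% (a log2 mean of 4.44), and p-values were adjusted over all of these by the Benjamini-Hochberg method. All 10 members were above that limit. None passed an adjusted p of 0.05 in limma, and 2 probe sets of all those tested did (0.0124%), EGR1 and CD69. At an unadjusted limma p under 0.05 there were 2 members of 10, against 4.73% of all probe sets tested. Both were higher with CXCL12 (2.72% of all) and 0 were lower (2.01% of all). The 2 were DUSP5 and DUSP6, and the count was 1 without untreated replicate 3, CXCL12 replicate 1 or CXCL12 replicate 3, and 4 with array weights.

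T cell markers, 12 of 12 above the limit, averaged 9.64 to 9.69 in untreated and 9.62 to 9.72 in CXCL12 arrays. Of other cell types, the listed monocyte markers averaged 5.15 to 5.20 over all arrays, and 5 of 7 were above the limit (LYZ and FCGR3A were dim). The B cell markers averaged 6.02 to 6.14, with 3 of 4 above the limit (MS4A1 was dim). The epithelial and fibroblast markers averaged 5.70 to 5.85, with 5 of 7 above it (EPCAM and PDGFRB were dim). The highest member was CST3 (6.89) among monocyte, CD79A (7.92) among B cell and COL1A2 (7.85) among epithelial and fibroblast markers. These are means over the 6 arrays, where the lowest T cell marker, CD2, read 8.26. In these bulk samples a change in RNA per cell and in the number of expressing cells cannot be told apart. Untreated replicate 1 stood apart on the first principal component, at -27.8 where the other arrays lay between -5.84 and 11.6.

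**Figure D1:**
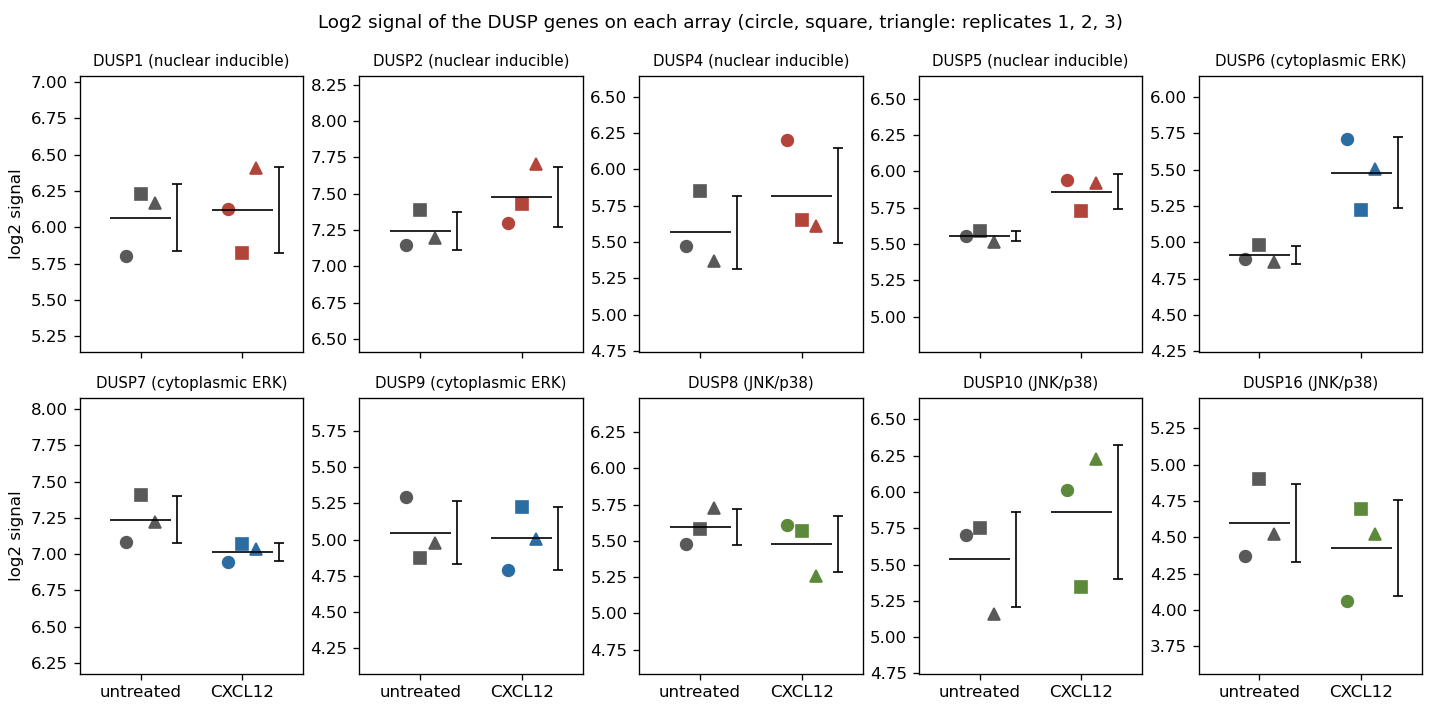
Log2 signal (vertical axis, the same span in every panel) of each DUSP gene on the 3 untreated and 3 CXCL12 arrays, with 1 symbol per replicate; the line is the group mean and the bar beside it ± 1 SD. DUSP5 and DUSP6 lie higher on all CXCL12 arrays than on any untreated array, DUSP7 lies lower, and the groups of the other 7 genes overlap.

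Among the nuclear inducible genes, DUSP5 separated the groups. DUSP5 inactivates ERK and anchors it in the nucleus. Its probe set (TC1000008891.hg.1) read 5.554, 5.588 and 5.517 in untreated replicates 1, 2 and 3 and 5.940, 5.724 and 5.920 in CXCL12 replicates 1, 2 and 3. Every CXCL12 array was above every untreated array. The log2 change was 0.31 (SE 0.12, 95% interval 0.05 to 0.57) and the limma adjusted p was 0.996. The untreated SD was 0.04 (n = 3) and the CXCL12 SD was 0.12 (n = 3).

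DUSP2, a phosphatase known from activated lymphocytes, read highest in CXCL12 replicate 3. Its values were 7.146, 7.390 and 7.197 on the untreated and 7.301, 7.430 and 7.703 on the CXCL12 arrays. The groups overlapped, because untreated replicate 2 lay above CXCL12 replicate 1. The log2 change was 0.23 (95% interval -0.07 to 0.53, limma adjusted p = 0.996), and 0.12 without CXCL12 replicate 3.

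DUSP4, which acts on ERK and JNK, had 5.476, 5.853 and 5.371 on the untreated and 6.200, 5.649 and 5.612 on the CXCL12 arrays. CXCL12 replicate 1 alone was above all untreated arrays. The log2 change of 0.25 (95% interval -0.13 to 0.64, limma adjusted p = 0.996) was 0.06 without that array.

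DUSP1, also called MKP-1, is the classical immediate early phosphatase and acts on p38 and JNK as well as ERK. It read 5.803, 6.228 and 6.168 on the untreated and 6.126, 5.820 and 6.408 on the CXCL12 arrays. Each group held 1 array near 5.8, so the groups overlapped. The log2 change was 0.05 (95% interval -0.31 to 0.41, limma adjusted p = 0.996), which bounds it between 0.81 and 1.33 times the untreated signal. Its sign turned without untreated replicate 1 (-0.08) or CXCL12 replicate 3 (-0.09).

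The cytoplasmic ERK class held both the largest positive and the largest negative difference of the family. DUSP6, also called MKP-3, binds ERK in the cytoplasm and is a widely used readout of ERK activity. Its probe set (TC1200011470.hg.1) read 4.883, 4.982 and 4.868 on the untreated and 5.713, 5.222 and 5.507 on the CXCL12 arrays. The untreated arrays lay close together and every CXCL12 array was above them. The group values were 4.91 ± 0.06 and 5.48 ± 0.25 (SD, n = 3 each), a log2 change of 0.57 (SE 0.14, 95% interval 0.27 to 0.87), or 1.48-fold (1.20 to 1.83). It ranked 28th by p among the 16086 probe sets (limma adjusted p = 0.829). Its untreated level was not far above the limit of 4.44 for dim probe sets.

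DUSP7, a close relative of DUSP6 with the same preference for ERK, had a change of the opposite sign. It read 7.085, 7.410 and 7.219 on the untreated and 6.949, 7.070 and 7.035 on the CXCL12 arrays. Every CXCL12 array was below every untreated array, narrowly so at the closest pair. The log2 change was -0.22 (SE 0.13, 95% interval -0.49 to 0.05, limma adjusted p = 0.996). Leaving out untreated replicate 1 gave -0.30, and leaving out untreated replicate 2 gave -0.13.

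DUSP9, the third of the class, had 5.291, 4.876 and 4.973 on the untreated and 4.791, 5.227 and 5.005 on the CXCL12 arrays. The arrays were mixed, with the highest reading in the untreated group and the lowest in the CXCL12 group. The log2 change of -0.04 (95% interval -0.37 to 0.29, limma adjusted p = 0.996) became 0.08 without untreated replicate 1 and 0.07 without CXCL12 replicate 1.

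In the JNK/p38 class, DUSP10 had the widest spread. DUSP10, also called MKP-5, restrains JNK and p38 and is known to limit T cell responses. It read 5.701, 5.750 and 5.160 on the untreated and 6.015, 5.345 and 6.224 on the CXCL12 arrays. CXCL12 replicates 1 and 3 were above all untreated arrays, and CXCL12 replicate 2 was below untreated replicates 1 and 2. The log2 change was 0.32 (SE 0.22, 95% interval -0.15 to 0.80, limma adjusted p = 0.996), and 1 array moved it widely: it was 0.58 without CXCL12 replicate 2 and 0.14 without untreated replicate 3.

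DUSP8 and DUSP16, which act on JNK and p38, had negative changes. DUSP8 read 5.478, 5.579 and 5.725 on the untreated and 5.608, 5.570 and 5.258 on the CXCL12 arrays. CXCL12 replicate 3 alone was below the untreated range, and the log2 change of -0.11 (95% interval -0.41 to 0.18) was -0.0045 without it and -0.17 without untreated replicate 1. DUSP16 had 4.374, 4.899 and 4.519 on the untreated and 4.059, 4.693 and 4.524 on the CXCL12 arrays. The groups overlapped, its CXCL12 mean of 4.43 was under the limit for dim probe sets, and its log2 change was -0.17 (95% interval -0.56 to 0.22). Without CXCL12 replicate 1, its lowest array, the change was 0.01, and without untreated replicate 1 it was -0.28. The limma adjusted p of both was 0.996.

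**Figure D2:**
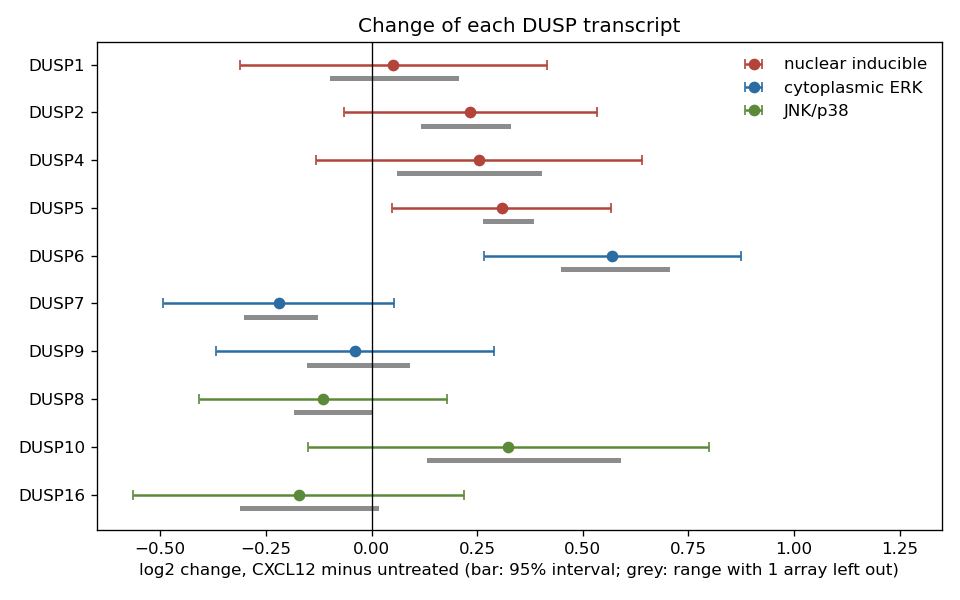
Log2 change of each DUSP transcript, CXCL12 minus untreated (horizontal axis), coloured by class, with limma's 95% interval as the bar and, in grey, the range of the change when each array is left out in turn. The intervals of DUSP5 (0.05 to 0.57) and DUSP6 (0.27 to 0.87) lie above 0, and the other 8 include it.

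Counted over the family, 6 of 10 changes were positive (50.7% of all probe sets tested), which is near the background. The CXCL12 arrays lay wholly above the untreated arrays for 2 members of 10, DUSP5 and DUSP6 (5.05% of all probe sets), and wholly below for 1, DUSP7 (4.48%). Without untreated replicate 2 the first count was 4 of the 9 members then tested, against 10.3% of all probe sets with that array left out. The median log2 change was 0.14 over the 10 members and 0.0023 over all probe sets tested. By class it was 0.24 for the nuclear inducible genes, -0.04 for the cytoplasmic ERK genes and -0.11 for the JNK/p38 genes. The last 2 turned positive with 1 array left out: the cytoplasmic ERK median was 0.08 without untreated replicate 1 and 0.07 without CXCL12 replicate 1, and the JNK/p38 median was 0.01 without CXCL12 replicate 1 and 0.15 without untreated replicate 2, where DUSP16 was dim. The nuclear inducible median ran from 0.17 to 0.32. The members were chosen with results of these arrays known, so these counts carry no test of their own.

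Class means were also taken on each array, relative to the untreated mean of each gene. The 4 nuclear inducible genes averaged -0.113, 0.157 and -0.044 in untreated replicates 1, 2 and 3 and 0.284, 0.048 and 0.303 in CXCL12 replicates 1, 2 and 3. CXCL12 replicate 2 thus lay within the untreated range. The JNK/p38 genes averaged -0.058, 0.167 and -0.108 on the untreated and -0.015, -0.040 and 0.093 on the CXCL12 arrays, so those groups overlapped wholly. The cytoplasmic ERK genes averaged 0.021, 0.024 and -0.045 on the untreated and 0.086, 0.108 and 0.117 on the CXCL12 arrays. That mean was higher on every CXCL12 array while the class median was negative, and without DUSP6 the groups overlapped: DUSP7 and DUSP9 alone averaged 0.046, 0.001 and -0.046 on the untreated and -0.272, 0.006 and -0.122 on the CXCL12 arrays.

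**Figure D3:**
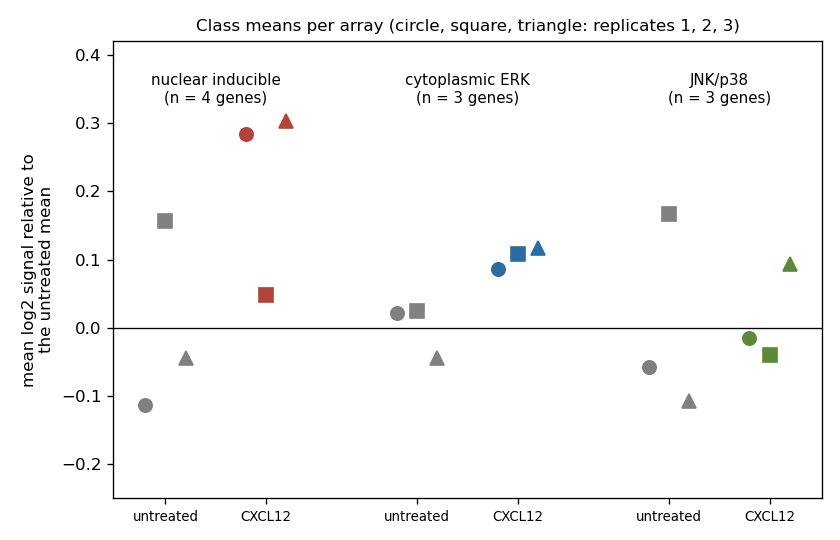
Mean log2 signal of each class relative to the untreated mean of its genes (vertical axis) on each array, grey for untreated and coloured for CXCL12, with 1 symbol per replicate. In this plot, 2 CXCL12 arrays of the nuclear inducible class, at 0.284 and 0.303, lie above all untreated arrays, and the third lies at 0.048; the cytoplasmic ERK class is higher on all CXCL12 arrays through DUSP6.

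Set against each other within an array, the nuclear inducible mean minus the JNK/p38 mean was -0.054, -0.009 and 0.064 on the untreated and 0.300, 0.088 and 0.211 on the CXCL12 arrays. These did not overlap, narrowly so between untreated replicate 3 (0.064) and CXCL12 replicate 2 (0.088). The nuclear inducible mean minus the cytoplasmic ERK mean was -0.134, 0.133 and 0.001 on the untreated and 0.198, -0.060 and 0.186 on the CXCL12 arrays, which overlapped. The cytoplasmic ERK mean minus the JNK/p38 mean, with 0.080, -0.142 and 0.063 on the untreated and 0.101, 0.148 and 0.025 on the CXCL12 arrays, overlapped as well. These class differences are descriptions and no p was computed for them.

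CXCL12 replicate 2 was the lowest CXCL12 array for 4 of the 6 members with a positive change (DUSP1, DUSP5, DUSP6 and DUSP10), and also for EGR1, which read 5.939, 5.907 and 6.118 on the untreated and 8.133, 7.802 and 7.981 on the CXCL12 arrays. EGR1 was nonetheless far above its untreated range on that array (log2 change 1.98, limma adjusted p = 4.52e-05). Without CXCL12 replicate 2, the DUSP6 change was 0.70 (limma adjusted p = 0.368). Among the CXCL12 arrays, DUSP2 read lowest on replicate 1 and DUSP4 on replicate 3. How often replicate 2 was lowest over all probe sets was not counted, so 4 of 6 has no background here. On the first principal component CXCL12 replicate 2 lay at -5.84, and CXCL12 replicates 1 and 3 at 11.4 and 11.6. Whether a weaker response of CXCL12 replicate 2 played a part was not tested.

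Among the members, DUSP5 and DUSP6 followed each other most closely over the 6 arrays (Pearson r = 0.987, and 0.937 for deviations from the group means). DUSP7 and DUSP16 came next by r over the 6 arrays (r = 0.794, and 0.862 for deviations). DUSP10 was most like DUSP5 (r = 0.742), DUSP4 most like DUSP6 (0.719) and DUSP1 most like DUSP2 (0.594). DUSP8 and DUSP9 had no near partner in the family (highest r of 0.330 and 0.170). Of 13468 other named probe sets tested, the 5 most like DUSP6 were KLF10 (r = 0.996), RBM5 (0.996), TBC1D28 (0.995), SEMA3G (0.988) and DUSP5. Their log2 changes were 0.71 for KLF10, a zinc-finger transcription factor, 0.16 for RBM5, 0.26 for TBC1D28 and 0.12 for SEMA3G. The points share the same 6 arrays and the group difference, and r over 6 arrays is a description only. The 5 probe sets, DUSP5 included, were picked as the highest of 13468 values, and such a pick by itself favours high r.

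**Figure D4:**
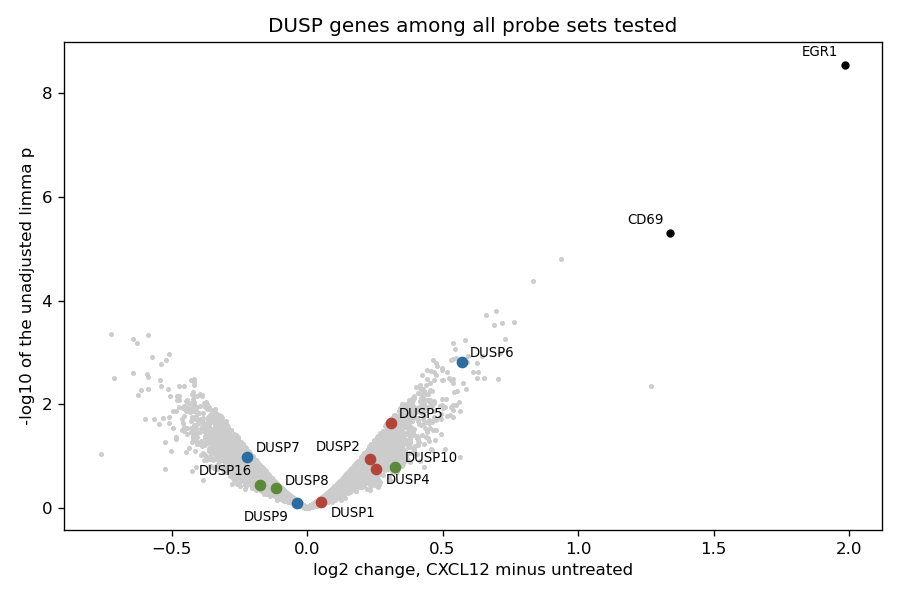
Log2 change, CXCL12 minus untreated (horizontal axis), against -log10 of the unadjusted limma p (vertical axis) for all 16086 probe sets tested (grey), with the DUSP genes coloured by class as above and EGR1 and CD69 in black. DUSP6, at 0.57, is the member farthest from the centre, well short of EGR1 at 1.98 and CD69 at 1.34, and most members lie in the body of the distribution.

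The kinases that these phosphatases act on, and the genes around them, were examined from fixed lists. None of the 6 tested genes of the ERK cascade passed over all probe sets (4 positive, 2 negative, median log2 change 0.02), and their changes ran from -0.10 for the GTPase HRAS to 0.13 for KSR1, a scaffold of the cascade. Of the JNK and p38 cascades, 0 of 11 tested genes passed (5 positive, 6 negative, median -0.0026), with -0.18 for MAP2K6 and -0.18 for MAP2K3, both activators of p38. Of kinases activated by MAP kinases, 0 of 10 passed (3 positive, 7 negative, median -0.13), with 0.24 for RPS6KA3, the ribosomal S6 kinase RSK2, and -0.21 for MAPKAPK2, a p38 effector. At an unadjusted limma p under 0.05 there were 0 genes in each of these 3 lists, against 4.73% of all probe sets tested.

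Other phosphatases were counted in the same way. Among 7 tested phosphatases of MAP kinases outside the DUSP family, 0 passed (4 positive, 3 negative, median 0.02). At an unadjusted limma p under 0.05 there was 1, PPM1B (4.73% of all probe sets tested). PPM1B, a metal-dependent serine/threonine phosphatase, had -0.42 (95% interval -0.82 to -0.01, overlapping arrays). PTPN7, the haematopoietic tyrosine phosphatase that binds ERK and p38, had 0.29 (-0.09 to 0.66). Among 15 tested atypical dual-specificity phosphatases and slingshots, most of which lack the MAP kinase docking domain of the 10 members, 0 passed (9 positive, 6 negative, median 0.02). DUSP28 had the largest change, -0.33 (95% interval -0.58 to -0.07, limma adjusted p = 0.996), with every CXCL12 array below every untreated one, and SSH2, a cofilin phosphatase, had -0.13. The highest change of this list was 0.10, for DUSP18.

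Among transcripts known to be induced by ERK, 1 of 16 tested genes, EGR1, passed the adjusted threshold (0.0124% of all probe sets tested). It was higher with CXCL12, and 0 passed with a negative change. The list had 13 positive and 3 negative changes (50.7% of all probe sets tested were positive) and a median of 0.24. At an unadjusted limma p under 0.05, 5 genes were higher (2.72% of all probe sets tested) and 1 was lower (2.01%). The CXCL12 arrays were all higher for 4 genes (5.05% of all probe sets) and all lower for 2, FOS and MYC (4.48%). SPRY4, an inhibitor of the route from receptors to ERK, had 0.63 (SE 0.17, limma adjusted p = 0.927). The DUSP6 change of 0.57 was thus close in size to that of SPRY4 and far below that of EGR1, whose 95% interval of 1.70 to 2.27 does not reach the DUSP6 interval. The median of this list, 0.24, and that of the nuclear inducible class, 0.24, are set beside a median of 0.0023 over all probe sets tested. Some of these genes were known from earlier results on these arrays, so their direction is not independent evidence.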

How the data were processed

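RNA of 6 Jurkat samples was measured on Affymetrix arrays, 1 per sample. The deposited table gives log2 signals per probe set; per the submitters' processing notes, the authors used RMA (background subtraction, normalization between arrays and summary of probes) and the Transcriptome Analysis Console, with versions and build not given in the sources used here. Without scanner files, detection calls and scan batches were not examined. Names come from the platform annotation, which can be old: 17709 probe sets had 1 symbol, 0 several, and 3739 are unnamed here. The dimmest 25% of probe sets, by their mean over all arrays, were left out. A two-sided limma fit without covariates (version 3.58.1, R 4.3.3; lmFit, then eBayes) was made on the rest, with Benjamini-Hochberg adjustment.

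The members, classes and lists were chosen with earlier results of these data known. The genes named outside the family are, per list, the 2 with the largest absolute change and any past the threshold, plus the 5 probe sets most like the member with the largest change; CD69 and others were named after their values were seen. Replicate numbers are shared between groups with no stated pairing; deviations of same-numbered arrays correlated at -0.189, -0.105 and 0.110, so the block is an alternative. In 20 simulations, 200 of 16086 probe sets were changed. The fit recovered 41.6% of log2 changes of 0.5 and 92.7% of 0.75, and 6.88% of its calls were false. Recovery at an adjusted threshold depends on how many probe sets change. On the real arrays 2 passed, so these shares do not say which changes the fit could miss here. The number of arrays limits the precision: a typical 95% interval (the median) extended 0.29 to each side in log2 units.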

Additional observations from a re-analysis of the deposited data

How the results depend on the processing

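The count of members past the adjusted threshold was 0 in the main limma fit and in each of the 15 alternatives, the replicate block included (0 members, with 2 at an unadjusted p under 0.05 as without it, and 0.31 and 0.57 for DUSP5 and DUSP6). When the dimmer 50% were left out (a limit of 6.19), DUSP2 and DUSP7 were the members still tested: 0 had an unadjusted p under 0.05, 0 had arrays wholly above the untreated ones, 1 had a positive change, the cytoplasmic ERK median was -0.22 from DUSP7 alone and the JNK/p38 class had no value. With array weights, 4 members had an unadjusted p under 0.05 (DUSP5, DUSP6, DUSP7 and DUSP10). With 1 array left out that count ran from 1 to 3, the count with arrays wholly above ran from 2 to 4 (8.45% to 13.3% of all probe sets, 10.3% where it was 4), and the JNK/p38 median ran from -0.17 to 0.15, the latter without untreated replicate 2, where DUSP16 was left out as dim. The cytoplasmic ERK median turned positive without untreated replicate 1 (0.08) or CXCL12 replicate 1 (0.07). The nuclear inducible median stayed between 0.17 and 0.32 in the 15 alternatives. With the dimmer 50% left out, its value of 0.23 came from DUSP2 alone. Signs of single members turned for DUSP1 (from -0.0932 to 0.2007 with 1 array left out), DUSP9 (from -0.1486 to 0.0830) and DUSP16 (from -0.3057 to 0.0112). DUSP6 was positive with an unadjusted p under 0.05 in all 14 alternatives that tested it (adjusted p from 0.308 to 1), DUSP5 in 11 of 14 (adjusted p from 0.626 to 1), not without untreated replicate 3, CXCL12 replicate 1 or CXCL12 replicate 3. The causes were not tested beyond the members lost to a filter. With 3 arrays a side, changes under about 0.29 lie within the usual interval.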
